A study of Rattus norvegicus with 20 samples.

Results

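Proteasome subunit genes were followed in cortical collecting ducts dissected from rat kidney, where vasopressin acts on principal cells to raise water reabsorption. They were defined by gene symbol, as Psma to Psmg followed by a number, with 10 or more counts in at least 10 of the 20 libraries. Of 48 genes with such a symbol, 46 met this rule, out of 32545 genes in the count table. The other two were Psma8, which reached 10 counts in 3 libraries, and Psmb11, which reached it in 0. The 46 genes fell into 17 core genes (7 Psma and 10 Psmb), 21 cap genes (7 Psmc and 14 Psmd) and 8 activator genes (3 Psme, 1 Psmf and 4 Psmg). The name pattern also took in Psmc3ip, a recombination factor named for binding a cap ATPase and not a proteasome subunit, and it was kept among the cap genes as the rule gave it. Psmd5, Psmd9 and Psmd10 are assembly chaperones of the cap, and the Psmg genes are assembly chaperones of the core. Psmf1 encodes a proteasome inhibitor and regulator. The class called activator is thus set by symbol, and only its 3 Psme genes encode activators. Psme3 was not analysed here.

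The 20 libraries came from 20 male Sprague-Dawley rats, each 5 weeks old, and every rat, controls included, carried a subcutaneous minipump that delivered DDAVP, a V2 receptor agonist, at 5 ng/h. Daily water, given in a gelled diet, was 50 mL for water-loaded rats and 25 mL for control rats, which models escape from the antidiuretic action of vasopressin. Ducts were dissected after 1, 2 or 4 days, from 3, 4 and 3 water-loaded rats and from 3, 4 and 3 control rats. The days follow the sample titles; the protocol label speaks of 4 days of water load for every rat, and this difference could not be settled from the labels. The question was whether expression differed with the water load at each day.

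The proteasome is the barrel-shaped protease that breaks down proteins tagged with ubiquitin. Alpha subunits (Psma) form its outer rings and beta subunits (Psmb) its inner rings, which hold the catalytic sites. The regulatory cap consists of a base, whose Psmc ATPases unfold the substrate, and a lid, whose Psmd14 removes the ubiquitin chain; most Psmd genes encode the other subunits of base and lid. In collecting duct principal cells the water channel Aqp2 is itself ubiquitylated, which directs it to internalisation and breakdown.

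Libraries held 33.5 to 74.9 M reads on genes (median 55.7 M), and the 46 genes took 0.355% to 0.720% of them (median 0.543%). Summed principal cell markers (12 genes, none at 0 in all libraries) came to 17145 to 30735 CPM in day 1 water-loaded rats against 29662 to 43506 CPM in day 1 controls. Their sum was 15387 to 28285 CPM in water-loaded rats against 27417 to 43111 CPM in controls at day 2. At day 4 it was 19949 to 29684 CPM against 36830 to 72653 CPM. Gene by gene, 9 of 12 fitted log2 differences were below 0 and 3 above at each day, with medians of -0.37, -0.38 and -0.30 at days 1, 2 and 4. The sums include the water channels Aqp2 and Aqp3, which were called lower with the water load over the average of days, as given below. The part of Aqp2 and Aqp3 in the sums was not separated. CPM here are counts scaled to library size with TMM factors, edgeR's correction for differences in library composition. Day 1 water-loaded 2 and day 1 control 1 stood apart, with TMM factors of 0.686 and 0.645 where the median was 1.02. The 14 proximal tubule markers measured summed to 8210 CPM in day 1 water-loaded 2, to 2729 CPM in day 2 control 1 and to 1087 CPM in day 1 control 1, against 52.9 to 442 CPM in the others, and the fibroblast and pericyte markers to 1620 CPM in day 1 control 1. The main day 1 results are given with and without the 2 day 1 libraries that stood apart. Fewer cells of a type and less RNA per cell cannot be told apart in such bulk samples.

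All 46 genes passed the filter on low counts of the test, and 44 of them had a mean above the median of all 14472 genes tested on a per-length scale (FPKM, fragments scaled by gene length and library size). Core genes were the most abundant class, with a median of their mean FPKM of 105, against 45.8 FPKM for activator genes and 40.6 FPKM for cap genes. All genes tested had a median of 5.63 FPKM. The span within a class was wide, with core genes at 7.47 to 642 FPKM, cap genes at 2.25 to 152 FPKM and activator genes at 14.9 to 61.6 FPKM.

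The highest core gene was Psmb4, a non-catalytic beta subunit. It had 486, 505 and 536 FPKM in water-loaded rats, against 757, 424 and 648 FPKM in controls at day 1. Day 2 brought 484, 401, 603 and 895 FPKM in water-loaded rats, against 601, 579.8, 836 and 741 FPKM in controls. At day 4 it had 551, 668 and 635 FPKM in water-loaded rats, against 829.8, 930.2 and 726 FPKM in controls. Only the day 4 groups were without overlap, with water-loaded rats lower, and on the CPM scale the fitted log2 difference there was -0.72 (SE 0.35, unadjusted p = 0.055, adjusted p = 0.687 by edgeR).

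Among cap genes the highest was Psmd6, a lid subunit. At day 1 it had 68.9, 3.62 and 56.2 FPKM in water-loaded rats, against 159, 34.4 and 55.5 FPKM in controls. Its day 2 values were 137, 126, 197 and 304 FPKM in water-loaded rats, against 173, 139, 288 and 262 FPKM in controls. At day 4 it had 156, 158 and 178 FPKM in water-loaded rats, against 186, 182 and 175 FPKM in controls. These overlapped, while on the CPM scale they did not, at 174, 175 and 202 CPM in water-loaded rats against 263, 273 and 204 CPM in controls. All but 1 of the 6 day 1 libraries lay below every later library, in both treatments. The lowest cap gene was Psmd10, an assembly chaperone also known as gankyrin. Psmd10 had 1.09, 0 and 3.09 FPKM in water-loaded rats, against 0, 0.706 and 0.223 FPKM in controls at day 1. It had 11.2, 0.103, 1.29 and 1.21 FPKM in water-loaded rats, against 11.9, 6.67, 0.418 and 0 FPKM in controls at day 2. It had 0.288, 1.05 and 1.52 FPKM in water-loaded rats, against 0.0792, 0.27 and 3.99 FPKM in controls at day 4. It held 0 counts in 3 libraries, and no more than 3.99 FPKM outside day 2.

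Psme1 and Psme2 encode the alternating subunits of an interferon-inducible activator ring that opens the core without ATP, and Psme1 was the highest activator gene. It had 71.0, 94.8 and 67.7 FPKM in water-loaded rats, against 104, 73.6 and 88.8 FPKM in controls at day 1. Its day 2 values were 72.4, 62.9, 48.4 and 52.4 FPKM in water-loaded rats, against 63.7, 53.5, 33.8 and 64.7 FPKM in controls, and at day 4 it had 52.3, 46.5 and 43.0 FPKM in water-loaded rats, against 56.3, 35.2 and 46.4 FPKM in controls. The treatments overlapped at every day, while every day 1 library of either treatment exceeded every day 4 library. Psme1 made up a median of 68.9% of the summed FPKM of Psme1 and Psme2, and was the lower of the pair in 1 of 20 libraries. This share was 75.5% to 95.5% in day 1 water-loaded rats and 73.4% to 83.8% in day 1 controls. At day 2 it was 65.3% to 70.4% against 57.6% to 72.5%, and at day 4 48.4% to 59.5% against 52.8% to 62.2%. RefSeq names 3 copies of each of the pair, so their levels are uncertain. The lowest activator gene was Psme4, a large nuclear activator. It had 14.8, 2.02 and 12.8 FPKM in water-loaded rats, against 8.86, 9.98 and 7.89 FPKM in controls at day 1. It had 21.6, 20.3, 22.8 and 10.1 FPKM in water-loaded rats, against 17.8, 20.8, 12.2 and 12.4 FPKM in controls at day 2, and 20.5, 18.4 and 16.1 FPKM in water-loaded rats, against 6.70, 13.8 and 29.2 FPKM in controls at day 4. These groups overlapped at every day as well.

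Spread between libraries, 1 per rat, was lower in most of these genes than the median of all genes tested. The biological coefficient of variation that edgeR estimates is the relative SD between libraries of a group beyond counting error. Rats, dissection and amplification all enter it. Its median was 0.478 over the 46 genes and 0.886 over all genes tested. Of the 46 genes, 42 lay below the median of all genes. Psma7, an alpha ring subunit, had the lowest at 0.290, and Psmd10 the highest at 1.62; Psmd13 stood at 0.310. Of 920 values (46 genes in 20 libraries) 27 were under 1 CPM, and these belonged to 7 genes. The spread fell with the level, in the proteasome genes as in other genes, and the 46 genes were mostly at the abundant end.

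**Figure D1:**
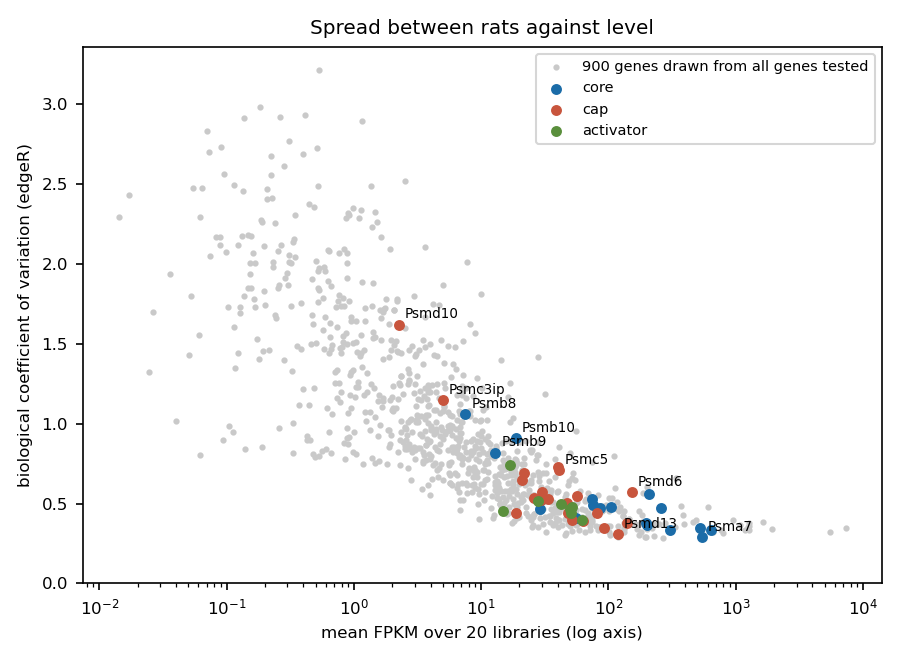
Biological coefficient of variation against mean FPKM (log axis) for the 46 proteasome genes, coloured by class, and 900 genes drawn at random from all genes tested (grey). Psma7 sits lowest at 0.290 and Psmd10 highest at 1.62.

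The catalytic beta subunits exist in a constitutive and an interferon-inducible form: Psmb5, Psmb6 and Psmb7 carry the chymotrypsin-like, caspase-like and trypsin-like sites, and Psmb8, Psmb9 and Psmb10 replace them in the immunoproteasome. On the FPKM scale the constitutive form was the higher of each pair in most libraries. Psmb8 made up a median of 3.48% of the summed FPKM of Psmb8 and Psmb5 (range 0.016% to 18.9%) and was the lower of the pair in 20 of 20 libraries. Psmb9 made up 9.76% with Psmb6 (range 0.590% to 32.3%), again the lower in 20 of 20. Psmb10 made up 26.8% with Psmb7 (range 0.0764% to 51.7%) and was the lower in 18 of 20, but this share varied by group, with medians of 2.67% in day 1 water-loaded rats against 10.3% in day 1 controls, 22.0% in day 2 water-loaded rats against 30.7% in day 2 controls, and 29.0% in day 4 water-loaded rats against 48.0% in day 4 controls (range 31.1% to 50.4%), where both genes were at about the same level in 2 of 3 rats. Reads that mapped to several places were not counted, so members with copies could be understated: RefSeq names 2 copies of Psmb7 and 3 of Psmb6 but none of Psmb5, Psmb8, Psmb9 or Psmb10.

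Psmb8, the lowest core gene, had 1.56, 0.0598 and 2.83 FPKM in water-loaded rats, against 0.0732, 0.0429 and 10.8 FPKM in controls at day 1. Its day 2 values were 4.98, 9.83, 9.996 and 9.99 FPKM in water-loaded rats, against 5.94, 20.2, 23.4 and 11.99 FPKM in controls, and at day 4 it had 6.14, 7.44 and 6.37 FPKM in water-loaded rats, against 7.70, 3.10 and 6.95 FPKM in controls. The 3 libraries under 0.1 FPKM were all of day 1. Psmb5 had 185, 211 and 116 FPKM in water-loaded rats, against 459, 86.9 and 91.1 FPKM in controls at day 1. It had 146, 178, 255 and 251 FPKM in water-loaded rats, against 118, 87.0, 144 and 337 FPKM in controls at day 2, and 481, 285 and 268 FPKM in water-loaded rats, against 205, 85.0 and 187 FPKM in controls at day 4. Psmb5 did not overlap between treatments at day 4, with water-loaded rats above (log2 difference 0.87 on the CPM scale), and neither gene passed the test at any day.

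Psmb9 had 18.9, 0.486 and 6.83 FPKM in water-loaded rats, against 18.6, 4.52 and 27.4 FPKM in controls at day 1. It had 9.86, 8.75, 23.2 and 12.7 FPKM in water-loaded rats, against 6.85, 10.3, 26.6 and 22.1 FPKM in controls at day 2, and 14.1, 14.6 and 4.53 FPKM in water-loaded rats, against 10.4, 4.00 and 13.8 FPKM in controls at day 4. Its partner Psmb6 was higher in each of these libraries, by the least in day 1 control 3. Psmb6 had 88.8, 81.8 and 60.5 FPKM in water-loaded rats, against 190.2, 87.7 and 57.4 FPKM in controls at day 1. It had 89.1, 82.9, 153 and 106 FPKM in water-loaded rats, against 87.7, 47.3, 69.4 and 160.3 FPKM in controls at day 2, and 146, 169 and 131 FPKM in water-loaded rats, against 74.4, 58.2 and 166 FPKM in controls at day 4. Both genes overlapped between treatments at every day. Psmb10 had 3.87, 0.0919 and 8.90 FPKM in water-loaded rats, against 81.1, 12.5 and 13.9 FPKM in controls at day 1, with no overlap. At day 2 it had 10.5, 6.28, 25.5 and 23.5 FPKM in water-loaded rats, against 18.6, 1.27, 19.4 and 24.9 FPKM in controls, and at day 4 it had 22.3, 16.04 and 18.9 FPKM in water-loaded rats, against 40.5, 11.1 and 14.7 FPKM in controls. The fitted log2 difference of Psmb10 at day 1 was -3.64 (SE 1.25, adjusted p = 0.235 by edgeR), and the lowest water-loaded and the highest control library at that day were the 2 that stood apart. Without day 1 control 1 it was -1.72, and without both libraries -1.16 (SE 1.00, adjusted p = 0.854 by edgeR).

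**Figure D2:**
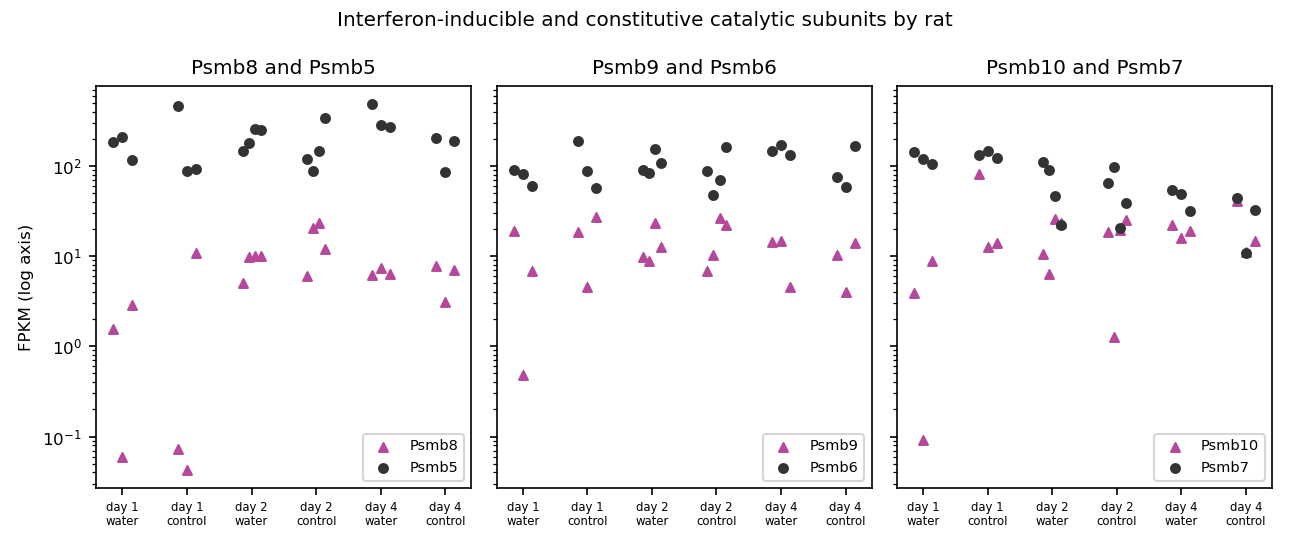
FPKM (log axis) of the interferon-inducible (triangles) and constitutive (circles) catalytic subunits, 1 point per rat, in water-loaded and control rats at days 1, 2 and 4. Psmb8 lies below Psmb5 and Psmb9 below Psmb6 in 20 of 20 libraries, and Psmb10 below Psmb7 in 18 of 20.

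Promoter sequence was read from RefSeq (build GRCr8), which gave 42 of the 46 genes. The 250 bases before each start site were searched on both strands for 3 short motifs known from proteasome promoters. TGACNNNGC, a core of the antioxidant-type element that the factor Nfe2l1 uses to drive proteasome genes, was present in 7 of 42 (16.7%), against 10.2% of 27457 promoters of all genes. CCAAT, the box bound by the NF-Y complex, was present in 20 of 42 (47.6%) against 34.3%, and in 10 of 16 core genes (62.5%). CCGGAAG, of the kind that ETS factors bind, was present in 11 of 42 (26.2%) against 7.74%, and in 7 of 18 cap genes (38.9%). Over the member promoters there was 1 overlap between matches of different motifs. A match describes letters and not binding. The promoters of a constitutive and an interferon-inducible subunit of the same catalytic site are shown because their levels differed most among the pairs; capitals mark the matches, which are TGACNNNGC in Psmb5, 60 to 52 bases before the start, and the reverse complement of CCAAT in Psmb8, 73 to 69 bases before the start.
Psmb5 (GRCr8 chr15:32047380-32047629, minus strand): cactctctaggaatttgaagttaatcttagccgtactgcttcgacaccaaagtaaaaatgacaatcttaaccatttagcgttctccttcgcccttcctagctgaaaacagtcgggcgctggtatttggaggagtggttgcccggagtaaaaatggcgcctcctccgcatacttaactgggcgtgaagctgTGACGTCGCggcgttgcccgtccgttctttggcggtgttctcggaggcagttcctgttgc
Psmb8 (GRCr8 chr20:4657032-4657281, minus strand): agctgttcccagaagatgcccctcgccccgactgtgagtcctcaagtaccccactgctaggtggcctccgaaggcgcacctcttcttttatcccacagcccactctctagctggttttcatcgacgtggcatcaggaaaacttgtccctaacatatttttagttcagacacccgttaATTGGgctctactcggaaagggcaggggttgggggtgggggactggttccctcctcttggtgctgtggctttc

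Proteasome genes were spread over 18 chromosomes, and 4 of them had another within 2 genes. Psmb8 and Psmb9 lie on chromosome 20 with Tap1, a peptide transporter for antigen presentation, between them, and Psme1 and Psme2 lie on chromosome 15 with Emc9 between them.

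The comparison of water-loaded with control rats gave no called gene among the 46 at any day. At day 1, 0 of 46 passed an adjusted p of 0.05 (edgeR's quasi-likelihood test with Benjamini-Hochberg adjustment over all genes), where 0% of all genes did; at day 2 and at day 4 the counts were likewise 0 of 46, against 0% of all genes. Over the average of the days 0 of 46 were called, against 0.159% of all genes (23 genes). Among those were the principal cell genes Aqp2 (log2 difference -1.07) and Aqp3 (-1.59), both water channels, and the transcription factor Hmx2 (-0.92). The test of whether the effect differed between days called 0 of 46, again against 0% of all genes. At an unadjusted p under 0.05, the members numbered 8 at day 1 (17.4%, against 15.6% of all genes), 0 at day 2 (against 5.23%), 3 at day 4 (6.52%, against 7.22%), 4 over the average (8.70%, against 13.5%) and 1 for the effect by day (against 8.56%). These shares were near or below the background. DESeq2 called 2 of 46 at day 1, Psmd13 (adjusted p = 0.0191) and Psmb10 (adjusted p = 0.00883), and 0 at the other days and over the average, while it called 1126 genes in all at day 1.

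At day 1, 34 of 46 fitted differences were below 0, against 48.9% of all genes, and the median log2 difference was -0.42, against 0.00 over all genes. Core genes had 15 of 17 below 0 (median -0.44), all 10 Psmb genes among them, cap genes 13 of 21 (median -0.21) and activator genes 6 of 8 (median -0.36). Without day 1 control 1 these were 10 of 17 core genes (median -0.13), 7 of 10 Psmb genes, 13 of 21 cap genes (median -0.18) and 4 of 8 activator genes (median -0.15). All 8 members at an unadjusted p under 0.05 (17.4% of the 46) were lower in water-loaded rats. Among all genes, 6.98% were at that mark and lower and 8.6% at that mark and higher. The 8 members were Psma7, Psmb10, Psmc2, Psmc3, Psmc5, Psmd6, Psmd13 and Psme2, and their number is not given without day 1 control 1. Without day 1 control 1 the count below 0 was 27 of 46 (median -0.16), and with both libraries that stood apart left out it was 29 of 46 (median -0.18). No member lay above without overlap (5.71% of all genes did) and 4 lay below (5.17% of all genes did).

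**Figure D3:**
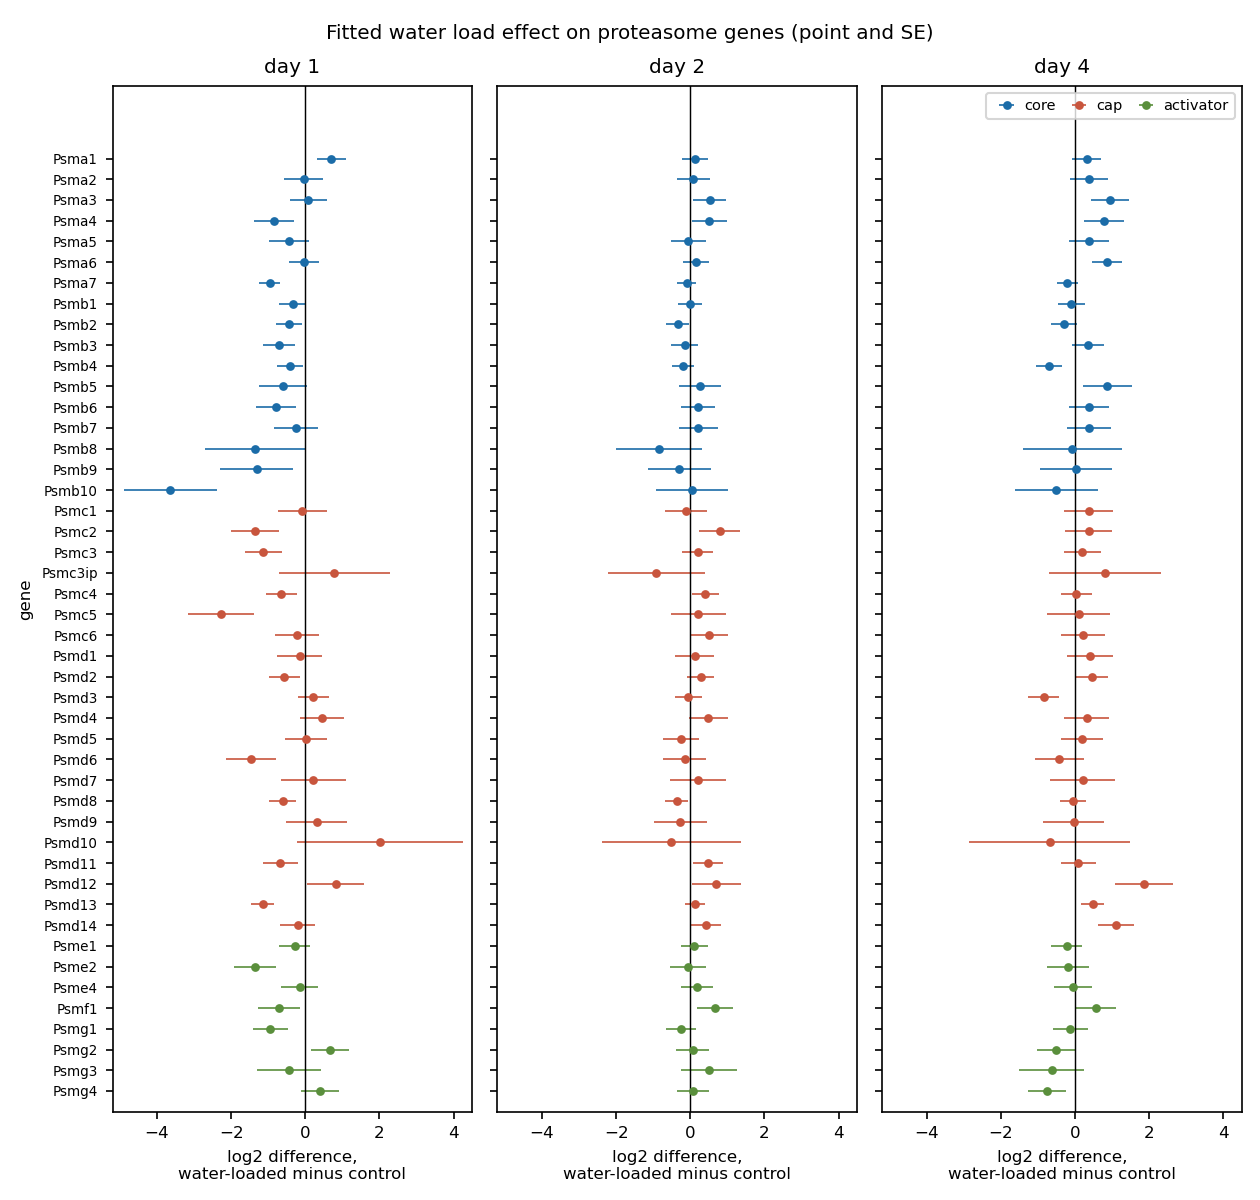
Fitted log2 difference, water-loaded minus control, of each proteasome gene at days 1, 2 and 4 (point), with its SE (bar), coloured by class. At day 1, 34 of 46 points lie left of 0, against 17 at day 2 and 18 at day 4; none passed the test.

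At day 2 the members lay on both sides, 29 above and 17 below 0 (median 0.11; 46.7% of all genes were above and 53.2% below, median -0.05). No member was at an unadjusted p under 0.05, where 2.76% of all genes were at that mark and higher and 2.47% lower. No member was without overlap in either direction, where 2.35% of all genes lay above and 1.88% below. The median was -0.02 without day 2 control 3. At day 4, 28 were above and 18 below 0 (median 0.19; 49.1% of all genes above and 49.8% below, median 0.00). The 3 members at an unadjusted p under 0.05 (Psma6, Psmd12 and Psmd14) were higher, where 5% of all genes were at that mark and higher and 2.22% lower. Core genes had 11 of 17 above 0 (median 0.35) and cap genes 16 of 21 (median 0.20), while activator genes had 1 of 8 (median -0.21). That 1 gene was Psmf1. All 7 Psmc genes were above 0, at differences of 0.03 to 0.80. The 0.80 was that of Psmc3ip, which is not a proteasome subunit. Psmc3ip had 4.79, 5.81 and 14.6 CPM in water-loaded rats, against 7.06, 0.216 and 7.17 CPM in controls. Other values moved with the treatment at day 4. Fibroblast and pericyte markers had 6 of 6 fitted differences above 0 (median log2 difference 4.52, none called), and their sum was 15.0 to 74.5 CPM in water-loaded rats against 6.65 to 9.32 CPM in controls, with 2 of the 8 listed genes at 0 in every library of each group. Endothelial markers had 6 of 8 above 0, with sums of 14.2 to 330.0 CPM in water-loaded rats against 47.9 to 212 CPM in controls. Detected genes numbered 14279 to 14482 in water-loaded rats against 13071 to 13804 in controls, and TMM factors were 1.19 to 1.22 in water-loaded rats against 0.904 to 1.17 in controls. With detected genes as a covariate, 9 of 17 core genes (median 0.03), 15 of 21 cap genes (median 0.26) and 4 of 8 activator genes (median -0.20) were above 0; the part of the markers was not tested. The day 4 member median was 0.04 without day 4 control 2 and 0.39 without day 4 control 3. On the CPM scale at day 4, 3 members lay above without overlap (Psmb5, Psmd2 and Psmd12), where 7.93% of all genes did. Another 4 lay below (Psmb4, Psmd6, Psmg3 and Psmg4), where 6.73% of all genes did, though the FPKM of Psmd6 overlapped. Over the average of the days 27 of 46 were below 0, against 49% of all genes, with a member median of -0.04, against 0.01. Of the 4 members at an unadjusted p under 0.05 there, 3 were lower (Psma7, Psmb4 and Psmb10), where 6.05% of all genes were at that mark and lower, and 1 was higher (Psmd12), where 7.42% were.

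**Figure D4:**
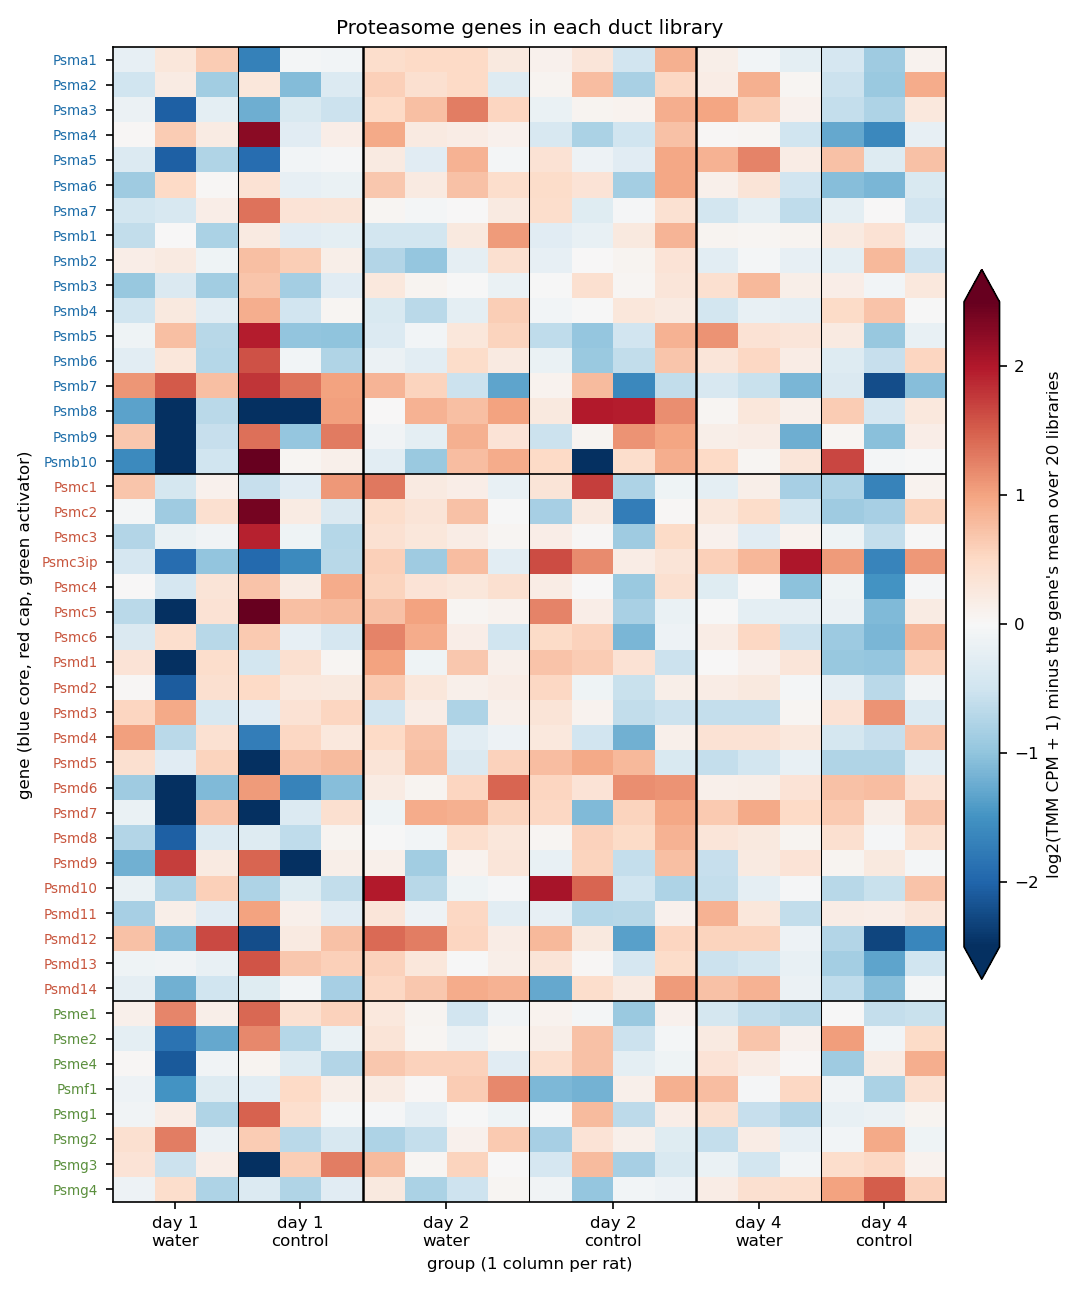
Each proteasome gene (rows, by class) in each rat (columns, by day and treatment, replicates 1 to 3 or 4 from the left), as log2(TMM CPM + 1) minus the gene's mean over 20 libraries. Day 1 water-loaded 2 and day 1 control 1 hold strong deviations of both signs.

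Psmd13, a lid subunit of the cap, had the smallest unadjusted p at day 1 and was the only member that edgeR called in any of the 7 tests. It had 159.7, 161 and 151 CPM in day 1 water-loaded rats against 509.7, 276 and 261 CPM in day 1 controls, so the groups did not overlap. At day 2 it had 257, 208, 170.5 and 191 CPM in water-loaded rats against 213, 175, 127 and 235 CPM in controls. At day 4 it had 118, 127 and 150.2 CPM in water-loaded rats against 95.2, 67.9 and 121 CPM in controls. The groups overlapped at both later days. The water load effect on Psmd13 was a log2 difference of -1.15 at day 1 (SE 0.31, 2.22-fold lower, adjusted p = 0.189 by edgeR), 0.14 at day 2 (SE 0.27) and 0.48 at day 4 (SE 0.31). It was -0.77 at day 1 without day 1 control 1. The difference of the effect between days had an unadjusted p of 0.0034 and an adjusted p of 0.43.

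Among control rats alone, Psmd13 fell with the days and passed the test (adjusted p = 0.0127 by edgeR; 1 of 46 members, against 2.45% of all genes). Its control means were 349 ± 139 CPM at day 1 (SD, n = 3), 188 ± 47.3 CPM at day 2 (n = 4) and 94.5 ± 26.3 CPM at day 4 (n = 3). The day 4 level was 3.69-fold below that of day 1 in controls (log2 difference -1.88, SE 0.32), and every day 4 control lay below every other control. In water-loaded rats the means were 157 ± 5.54, 207 ± 37.0 and 132 ± 16.7 CPM at days 1, 2 and 4, with a day 4 minus day 1 log2 difference of -0.25 (SE 0.31). The call was lost without day 1 control 1 (adjusted p = 0.0634) or day 4 control 1 (adjusted p = 0.0507), within a range of 6.62e-05 to 0.0634 over the alternatives. Fibroblast and pericyte markers (8 genes, 6 tested) also differed over the control days: their sum was 34.6 to 1620 CPM at day 1, 24.4 to 64.8 CPM at day 2 and 6.65 to 9.32 CPM at day 4, and Col1a1 and Pdgfrb were called. The 12 intercalated cell markers summed to 12840.5 to 15372, 12844 to 17985 and 15549 to 18507 CPM in controls of days 1, 2 and 4. Of them, only Foxi1 and Slc4a9 were called. Foxi1 averaged 316 ± 26.7, 578 ± 146 and 933 ± 135 CPM in controls of days 1, 2 and 4, and Slc4a9 410.0 ± 223, 979 ± 370 and 2044 ± 304 CPM. Principal cell markers, none called, summed to 29662 to 43506, 27417 to 43111 and 36830 to 72653 CPM. The part of these markers in the Psmd13 values was not tested. The Psmd13 promoter is shown as that of the called gene, on the same RefSeq build; capitals mark the reverse complement of CCAAT, 96 to 92 bases before the start, and CCGGAAG, 59 to 53 bases before it.
Psmd13 (GRCr8 chr1:205393998-205394247, plus strand): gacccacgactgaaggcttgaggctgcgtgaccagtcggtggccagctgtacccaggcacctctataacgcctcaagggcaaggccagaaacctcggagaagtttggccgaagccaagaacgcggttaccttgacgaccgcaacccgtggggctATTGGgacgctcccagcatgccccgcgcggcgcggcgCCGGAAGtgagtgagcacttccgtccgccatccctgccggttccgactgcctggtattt

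**Figure D5:**
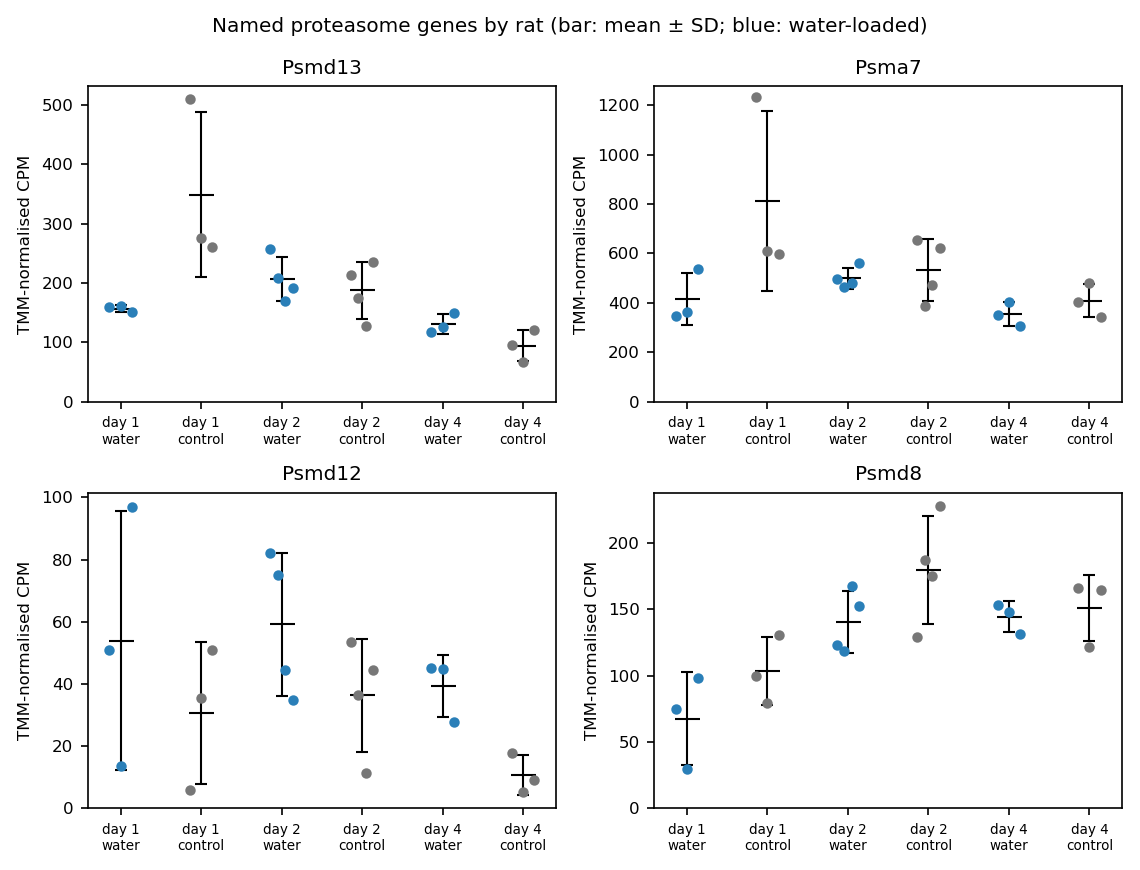
TMM CPM of Psmd13, Psma7, Psmd12 and Psmd8, 1 point per rat (blue water-loaded, grey control), with mean ± SD of each group. Psmd13 has control means of 349, 188 and 94.5 CPM at days 1, 2 and 4, and Psmd12 at day 4 lies higher in all water-loaded rats.

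Psma7 had the smallest unadjusted p of the core genes at day 1 and over the average. At day 1 it had 348, 364 and 536 CPM in water-loaded rats, against 1231, 610.0 and 596 CPM in controls. By day 2 it had 496, 463, 482 and 560.2 CPM in water-loaded rats, against 653, 386, 473 and 624 CPM in controls, and at day 4 it had 349, 404 and 308 CPM in water-loaded rats, against 403, 479.6 and 345 CPM in controls. Only at day 1 were the groups apart, with water-loaded rats below. The log2 difference at day 1 was -0.97 (SE 0.29, adjusted p = 0.225 by edgeR), and -0.53 without day 1 control 1, the highest library. Over the average of days it was -0.42 (SE 0.16, adjusted p = 0.245 by edgeR), and -0.28 without day 1 control 1. Means over the days were 431 ± 87.8 CPM in water-loaded rats and 580.1 ± 253 CPM in controls, that library included (SD, n = 10 each).

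Psmd12, another lid subunit, was the cap gene with the smallest unadjusted p at day 4 and over the average, and its fitted differences were above 0. It had 51.0, 13.8 and 96.9 CPM in water-loaded rats, against 5.75, 35.4 and 50.8 CPM in controls at day 1. At day 2 it had 82.1, 75.2, 44.5 and 34.8 CPM in water-loaded rats, against 53.6, 36.3, 11.3 and 44.3 CPM in controls, and at day 4 it had 45.3, 44.9 and 27.7 CPM in water-loaded rats, against 17.9, 5.40 and 9.16 CPM in controls. The day 4 groups did not overlap, and the other days did. Its log2 difference was 0.81 at day 1 (SE 0.76), 0.70 at day 2 (SE 0.66) and 1.86 at day 4 (SE 0.78, 3.63-fold, adjusted p = 0.674 by edgeR). Over the average it was 1.13 (SE 0.42, adjusted p = 0.241 by edgeR).

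Psme2 led the activator genes at day 1, where it had 28.0, 8.55 and 13.0 CPM in water-loaded rats, against 77.7, 19.9 and 29.3 CPM in controls (log2 difference -1.36, SE 0.58, adjusted p = 0.280 by edgeR). That difference was -0.57 without day 1 control 1 and -0.26 without both day 1 libraries that stood apart. The groups overlapped there and at the later days. It had 41.8, 34.4, 29.8 and 34.1 CPM in water-loaded rats, against 36.5, 55.9, 22.5 and 32.1 CPM in controls at day 2, and 38.9, 53.9 and 35.8 CPM in water-loaded rats, against 69.8, 31.4 and 46.5 CPM in controls at day 4. Its mean was 31.8 ± 13.3 CPM over 10 water-loaded rats, against 42.2 ± 19.8 CPM over 10 controls (SD).

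The day 2 leaders were Psma3, Psmc2 and Psmf1, each with groups that overlapped and an adjusted p of 1 by edgeR. Psma3, an alpha ring subunit with 2 copies named in RefSeq, had 64.3, 77.8, 112 and 66.4 CPM in water-loaded rats, against 40.2, 47.9, 48.1 and 86.4 CPM in controls at day 2 (log2 difference 0.53, SE 0.44). It had 41.2, 10.2 and 38.5 CPM in water-loaded rats, against 19.1, 34.5 and 31.2 CPM in controls at day 1, and 91.2, 70.5 and 49.4 CPM in water-loaded rats, against 29.8, 26.1 and 54.9 CPM in controls at day 4. Psmc2, an ATPase of the base, had 99.6, 92.8, 123 and 73.3 CPM in water-loaded rats, against 41.0, 85.6, 21.4 and 75.5 CPM in controls at day 2 (log2 difference 0.80, SE 0.55). It had 71.4, 39.4 and 97.4 CPM in water-loaded rats, against 391, 85.0 and 57.1 CPM in controls at day 1, where day 1 control 1 was the high library, and 90.0, 101 and 52.9 CPM in water-loaded rats, against 39.3, 40.9 and 109 CPM in controls at day 4. Psmf1, a proteasome inhibitor and regulator, had 57.6, 51.0, 78.4 and 117 CPM in water-loaded rats, against 22.6, 21.6, 54.5 and 94.1 CPM in controls at day 2 (log2 difference 0.66, SE 0.49). It had 45.8, 17.2 and 39.6 CPM in water-loaded rats, against 41.4, 70.8 and 55.7 CPM in controls at day 1, and 86.2, 49.1 and 72.3 CPM in water-loaded rats, against 46.8, 28.5 and 65.9 CPM in controls at day 4. For Psmf1, the day 2 rats numbered 3 and 4 lay above those numbered 1 and 2 in both treatments. Between rats of the same number at day 2, the water-loaded rat was higher in 4 of 4 pairs for Psmf1 and in 3 of 4 for Psma3 and for Psmc2; with the number as a block at day 2 the log2 difference of Psmf1 was 0.86 (SE 0.41, adjusted p = 1 by edgeR).

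Besides Psmd12, the day 4 leaders were Psma6 and Psmg4. Psma6, an alpha ring subunit, had 185, 211 and 122 CPM in water-loaded rats, against 80.4, 76.0 and 130.4 CPM in controls at day 4, overlapping in 1 rat of each group (log2 difference 0.85, SE 0.41, adjusted p = 0.687 by edgeR). It had 90.9, 239 and 173 CPM in water-loaded rats, against 217, 147 and 151 CPM in controls at day 1, and 269.6, 197, 280.0 and 230.0 CPM in water-loaded rats, against 232, 213, 93.6 and 330.4 CPM in controls at day 2. RefSeq names 5 copies of Psma6, so its level is uncertain. Psmg4, an assembly chaperone with 3 named copies, had 30.4, 35.4 and 35.8 CPM in water-loaded rats, against 54.5, 77.9 and 40.2 CPM in controls at day 4, with every water-loaded rat lower (log2 difference -0.76, SE 0.51, adjusted p = 0.873 by edgeR). It had 24.2, 36.1 and 15.1 CPM in water-loaded rats, against 20.6, 15.2 and 21.6 CPM in controls at day 1, and 31.5, 14.8, 18.2 and 27.3 CPM in water-loaded rats, against 25.0, 13.0, 25.1 and 24.0 CPM in controls at day 2. All values of those earlier days lay below those of every day 4 control.

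Differences between days were also read within each treatment. Among water-loaded rats 38 of 46 members were higher at day 2 than at day 1 and 8 lower (median log2 difference 0.51), where 53.2% of all genes were higher and 46.6% lower (median 0.09), and with the 2 libraries that stood apart left out it was again 38 of 46 (median 0.35), against 54.2% of all genes. Core genes had 15 of 17 higher, cap genes 18 of 21 and activator genes 5 of 8. Among control rats 21 of 46 were higher at day 2 than at day 1 and 25 lower (median -0.17), where 54% of all genes were higher and 45.4% lower. Without the 2 libraries 27 of 46 were higher (58.7%), near the 56.4% of all genes. From day 2 to day 4, 32 of 46 were lower in water-loaded rats (median -0.20), against 52.1% of all genes, and 32 of 46 in controls (median -0.22), against 54.6% lower and 44.7% higher. From day 1 to day 4, 27 of 46 were higher in water-loaded rats, where 50.3% of all genes were higher and 49% lower, and 27 of 46 were lower in controls, where 48.7% of all genes were. Without the 2 libraries 25 of 46 were higher in water-loaded rats, against 50.8% of all genes. In controls 23 of 46 were then lower and 23 higher, where 49.4% of all genes were higher. The test over days called 0 of 46 in water-loaded rats, where 0.263% of all genes were called; 8 members were at an unadjusted p under 0.05 (17.4%, against 12.1% of all genes), and also 8 among controls (17.4%, against 22.5%).

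Psmd8, a lid subunit, had the smallest unadjusted p over the days of water-loaded rats (0.0123, adjusted p = 0.257 by edgeR). It had 74.9, 29.6 and 98.2 CPM at day 1, 123, 118, 167 and 152 CPM at day 2 and 154, 148 and 132 CPM at day 4 in water-loaded rats. In controls it had 99.7, 79.5 and 131 CPM at day 1, 129, 187, 175 and 228 CPM at day 2 and 166, 122 and 165 CPM at day 4. Every day 1 water-loaded rat lay below every later water-loaded rat, and the controls of days 1 and 2 overlapped.

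Psmb7 ran the other way and did so in both treatments. It had 133, 181 and 104 CPM in water-loaded rats, against 213, 159.9 and 125 CPM in controls at day 1. At day 2 it had 111, 91.1, 42.1 and 24.1 CPM in water-loaded rats, against 65.3, 106, 19.4 and 39.7 CPM in controls, and at day 4 it had 46.3, 41.6 and 27.1 CPM in water-loaded rats, against 47.3, 12.4 and 28.8 CPM in controls. All day 4 values lay below all day 1 values. The day 4 minus day 1 log2 difference was -1.86 (SE 0.62) in water-loaded rats and -2.49 (SE 0.63) in controls, and the test over days gave an adjusted p of 0.308 in water-loaded rats and of 0.0575 in controls by edgeR. Among controls it passed with DESeq2 (adjusted p = 0.00431), with the member rule as the filter (adjusted p = 0.0434) and with replicate numbers as a block at day 2 (adjusted p = 0.0191). It did not with DESeq2's size factors, no low-count filter, detected genes as a covariate or the 2 day 1 libraries left out. With 1 library left out, edgeR called it only without day 2 control 2 or day 2 water-loaded 4 (adjusted p = 0.0380 and 0.0481). At day 2 the rats numbered 3 and 4 were lower than those numbered 1 and 2 in both treatments; Psmb1, another beta subunit, had the reverse, at 379.9, 380.3, 625 and 1092 CPM in water-loaded rats and 432, 463, 624 and 952 CPM in controls.

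Genes of the pathway outside the 46 gave no call by edgeR in any of the 7 tests. Of 15 measured partners with other symbols (ubiquitin receptors, deubiquitylases and assembly factors), 8 were above and 7 below 0 over the average of days (median log2 difference 0.14). Of 20 ubiquitin and segregase genes, 11 were above and 9 below 0 (median 0.00), of 13 genes of the transcription pathway 7 and 6 (median 0.07), and of 16 interferon and antigen presentation genes 4 and 12 (median -0.32), where the median over all genes was 0.01. Nfe2l1, the factor that raises proteasome genes when proteasome activity falls, averaged 29.6 ± 13.1 CPM in water-loaded rats and 30.8 ± 16.9 CPM in controls (SD over 10 rats each), and the log2 difference was 0.08 (SE 0.43). Adrm1, a ubiquitin receptor of the cap, averaged 52.2 ± 27.8 CPM in water-loaded rats and 58.5 ± 32.4 CPM in controls, and the log2 difference was -0.18 (SE 0.29). Pomp, the maturation factor of the core, stood at 0.154 to 1.31 CPM over all libraries, and a Pomp-like copy was annotated beside it, so reads shared by both were not counted and its level is uncertain.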

How the data were processed

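The submitters deposited 2 tables of the whole series with 1 column per rat. In the first, the deposited values were whole-number counts of reads per gene; in the second, the authors gave FPKM, which within each gene were the same counts rescaled by a fixed length and by the reads on genes. The submitters' processing notes list Trimmomatic 0.32, STAR 2.4.0.1, SAMtools and HTSeq with build rn6; for annotation and strand setting, nothing was given in the sources used here. Per the labels' protocols, cDNA was made in tubule lysate by a method written for single cells. Summary lines without a gene made up 31.5% to 35.6% of a library (reads that mapped to several places 21.3% to 26.9%) and were left out.

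The deposited counts entered edgeR 4.0.16 (R 4.3.3): TMM, filterByExpr by group (14472 genes), 1 robust quasi-likelihood fit of 6 group means over all 20 libraries, 7 tests, Benjamini-Hochberg adjustment over all genes tested and a threshold of 0.05. The tests were the water load at day 1, 2 and 4, over the average of days, the difference of its effect between days, and the days among control and among water-loaded rats. A floor of 3 counts was worth 0.0414 to 0.0926 CPM; amplified reads are not independent molecules, so this covers counting error only. Levels were compared between genes in FPKM, and fitted differences and counts of groups without overlap used TMM CPM. Where the values of a gene are given in FPKM, its overlap beside them was read in FPKM.

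Replicates are separate rats per the labels. Numbers shared between treatments were checked by the correlation of same-numbered libraries' deviations from the group means. At day 2 these were 0.183, 0.154, 0.188 and 0.262, all over 0.1, and at days 1 and 4 they were -0.17 to 0.06. The labels do not state pairs, and this check alone does not establish them. The reported fit used no block, and a block by number at day 2 was kept as an alternative. The members and lists were chosen with earlier results of these data known, the pathway and marker lists from textbook knowledge. Values in every sample are given for members called in any test, for the member of each class with the smallest p in a water load contrast, for that with the smallest p in each test over days, for the catalytic and Psme pairs, and for the highest and lowest mean FPKM of a class; Psmb1 was added after its values were seen. Outside the members, genes called over all genes, Nfe2l1, Pomp and Adrm1 were to be named. Those were Aqp2, Aqp3 and Hmx2 over the average of days and Foxi1, Slc4a9, Col1a1 and Pdgfrb among the days of controls. Alternatives were DESeq2 1.42.0, its size factors, 2 other filters, the replicate number as a block, detected genes per library as a covariate, 2 day 1 libraries left out and each library left out. A block at day 2 alone, and the differences between days without the 2 libraries, were chosen after seeing the data.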

Additional observations from a re-analysis of the deposited data

Results flagged for a closer look

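The highest or lowest rat was tested for its distance from the other 3 in the day 2 groups, the only groups of 4, for 46 genes and 2 treatments. Of 92 groups, 6 held a rat farther from the others than Dixon's 95% limit for 4 values; chance gives about 1 in 20. Among water-loaded rats, Psma4 had 499 CPM in rat 1, against 278 to 301 CPM in the others, and Psme4 had 67.7 CPM in rat 4, against 125 to 133 CPM. Among controls, Psmb10 had 1.34 CPM in rat 2, against 17.4 to 24.3 CPM in the others. Psmd5, a chaperone of cap assembly, had 68.2 CPM in control rat 4, against 153 to 174 CPM. Psme1 had 30.4 CPM in control rat 3, against 56.5 to 63.1 CPM, and Psmg4 had 13.0 CPM in control rat 2, against 24.0 to 25.1 CPM. In 5 of the 6 the rat was low and in 1 it was high. None of these genes was called at day 2.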

How the results depend on the processing

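Of 14472 genes, DESeq2 called 1126 at day 1, 77 at day 2, 319 at day 4, 708 over the average, 193 for the effect by day, 1586 over the control days and 520 over the water-loaded days, and of the 46 members 2 at day 1 and 6 over the control days (Psma4, Psmb7, Psmc2, Psmd13, Psme1 and Psmg4). Over the average, 5 genes were called with the replicate number as a block within days, 4 with detected genes per library as a covariate and 10 with the replicate block at day 2 alone. Over the control days, leaving out the 2 day 1 libraries gave 185 genes and 2 members (Psmd6 and Psmd13). The filter of 10 counts in 10 libraries gave 2 members and the replicate block at day 2 also 2 (Psmb7 and Psmd13). Apart from leaving out 1 library, the alternatives gave 185 to 1586 genes in all over these days, against 355 as reported. The members called were not set against the share of all genes in each alternative. Over the water-loaded days the counts were 0 with detected genes as a covariate, 11 without the 2 libraries and 115 with the replicate block at day 2. The blocks changed no other call among the members. Over the average, the sign was followed only for Psma7, Psmd12, Psmd13, Psme1, Psme2 and Psmb5 to Psmb10. Of these, 3 changed sign in such alternatives. Psmb6 (-0.06 as reported) went to 0.11 with the replicate block and 0.17 without the 2 libraries. Psmb8 (-0.76) went to 0.033 with the replicate block and Psme1 (-0.14) to 0.045 with detected genes as a covariate. The cause was not tested, and the remaining members were not checked for sign.

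With each library left out in turn, the genes called ranged from 0 to 9 at day 1, 6 to 37 over the average, 0 to 3 for the effect by day, 43 to 563 over the control days and 5 to 79 over the water-loaded days, and the members called over the control days from 0 to 3. The activator median at day 1 ranged from -0.56 to -0.15, Psmd13 at day 2 from -0.0077 (without day 2 control 3) to 0.26, and over the average Psmb6 from -0.19 to 0.27, Psmb7 from -0.0074 to 0.29 and Psmb8 from -1.05 to 1.08. The adjusted p of Psmd13 over the control days ranged from 0.0109 to 0.0634.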
